A study of Mus musculus with 2 samples.

Results

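The blood-brain barrier genes described here are 9 of the 32285 genes in the count matrices, taken by symbol: Cldn5, Ocln, Tjp1 and Cdh5 of the cell junctions, Mfsd2a and Slc2a1 for lipid and glucose entry, the efflux pump gene Abcb1a, and the organic anion carriers Slco1a4 and Slco1c1. They were chosen by name and not by a rule on measured values, though with earlier results of these data known. All 9 were found in both matrices. RNA was measured in single cells of the hippocampus of 7-week-old mice. The 60TM mice carry a human GFAP gene as a GFAP-hGFAP transgene in C57BL6/J and are used to model Alexander disease, in which changes of the GFAP gene harm astrocytes. The WT mice are C57BL6/J without the transgene. Each genotype has 1 library pooled from 3 mice after perfusion and papain digestion, and the mice were not told apart here, so the spread between mice is unknown. The transgene is named for the GFAP promoter, which is active in astrocytes, so endothelial cells are not the cells it is meant to change.

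The blood-brain barrier is formed by endothelial cells that seal their contacts with tight junctions, carry few vesicles and move nutrients and drugs through dedicated carriers. Pericytes and astrocytes induce and maintain it, and Wnt signals from neighbouring cells switch much of the programme on during development. The choroid plexus is an exception in the brain: its capillaries are leaky, and its epithelium, with other claudins and carriers, forms a separate barrier between blood and cerebrospinal fluid. Mural cells are the pericytes and smooth muscle cells that wrap the vessels.

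After filtering, the 60TM library held 7575 cells and 70839273 unique molecular identifiers (UMIs, counted RNA molecules), with a median of 7502 per cell, and the WT library 6086 cells and 57439787 UMIs, with a median of 7216. Cells were clustered without the 9 genes among the variable genes and were named from markers that include none of them. The libraries shared 20 barcodes, 14 of them among the cells kept and 0 among endothelial cells. Levels are given as CPM, the UMIs of a gene scaled to a common total of UMIs in the cell class, and a ratio is 60TM CPM over WT CPM. Intervals in parentheses are 95% and cover counting error only. With 1 library a genotype there is no replicate check and no test between genotypes, and a difference between libraries cannot be told apart from a difference between genotypes.

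Endothelial cells numbered 172 in the 60TM library and 109 in the WT library, with medians of 4989.5 and 3935 UMIs per cell. All 12 endothelial markers were detected in both libraries, and their summed level was 23131 CPM in 60TM and 25228 CPM in WT. Mural cells numbered 49 in 60TM and 57 in WT, and the pericyte gene Vtn stood at 22003 CPM in 60TM mural cells and 23584 CPM in WT ones. Choroid plexus epithelial cells numbered 243 in 60TM and 59 in WT, with Ttr, their main secreted protein, at 266175 CPM in 60TM and 257832 CPM in WT. A further 129 cells in 60TM and 59 in WT formed 4 vascular clusters that were left unnamed because the markers of a second class, endothelial, pericyte or smooth muscle, came close to those of the first. These unnamed vascular cells were deep, with medians of 12783 UMIs in 60TM and 11908 in WT, and their pericyte markers summed to 11374 CPM in 60TM and 11548 CPM in WT. In the endothelial class the same 10 pericyte markers summed to 1417 CPM in 60TM and 1447 CPM in WT.

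Claudin 5, the main sealing protein of brain endothelial tight junctions, was lower in 60TM endothelial cells. Cldn5 (ENSMUSG00000041378, chr16:18776847-18778262 of GRCm38, plus strand) had 4743 UMIs in 60TM endothelial cells and 3396 in WT ones, which is 4322 CPM (4200 to 4447) in 60TM and 6134 CPM (5929 to 6343) in WT. The ratio was 0.705 (0.674 to 0.737), and 5.87% of the 3066 genes with at least 100 UMIs in the class had a lower one. In single cells the median was 39.3 Cldn5 UMIs per 10000 in 60TM and 59.4 in WT, with middle ranges of cells of 26.4 to 54.0 in 60TM and 37.6 to 79.8 in WT. The cells therefore overlapped widely, while the middle of the distribution sat lower in 60TM.

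The other junction genes moved less or were less precisely measured. Cdh5 (ENSMUSG00000031871, chr8:104101625-104144511, plus strand) encodes VE-cadherin, the adhesion protein of endothelial adherens junctions. It was lower in 60TM, at 378 CPM (343 to 416) against 493 CPM (436 to 555) in WT, a ratio of 0.767 (0.657 to 0.897). Within the endothelial sub-clusters described below, c28, c29, c30 and c35, the Cdh5 ratio was 0.722, 0.871, 0.653 and 1.32. Its interval left out 1 in c30 alone (0.471 to 0.902). Tjp1 (ENSMUSG00000030516, chr7:65296165-65527781, minus strand) encodes ZO-1, the scaffold that ties claudins to actin. Its level was 700 CPM (651 to 751) in 60TM and 845 CPM (770 to 925) in WT, a ratio of 0.828 (0.737 to 0.931). Within c28, c29, c30 and c35 the Tjp1 ratio was 0.754, 0.906, 0.607 and 2.19. The interval lay below 1 in c28 (0.574 to 0.999) and c30 (0.465 to 0.790) and included 1 in c29. In c35, with 7 cells in 60TM and 5 in WT, it lay above 1. The lower pooled level of Tjp1 in 60TM was also not seen in the unnamed vascular cells. There Tjp1 stood at 780 CPM in 60TM and 694 CPM in WT, with a ratio of 1.12 (1.02 to 1.24). Mural cells also express Tjp1, at 541 CPM in 60TM and 474 CPM in WT. Ocln (ENSMUSG00000021638, chr13:100496507-100552718, minus strand) encodes occludin, a tight junction protein that brain endothelium shares with epithelia. Its level was 306 CPM (274 to 341) in 60TM and 320 CPM (274 to 370) in WT, and its ratio of 0.958 (0.796 to 1.16) included 1.

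Glucose transporter 1, which carries glucose from blood into brain, was the member that was higher in 60TM endothelial cells. Slc2a1 (ENSMUSG00000028645, chr4:119108711-119137983, plus strand) had 2117 UMIs in 60TM and 790 in WT, or 1929 CPM (1848 to 2013) in 60TM and 1427 CPM (1329 to 1530) in WT. The ratio was 1.35 (1.25 to 1.47), and 91.9% of the 3066 genes had a lower one. The median cell had 18.1 Slc2a1 UMIs per 10000 in 60TM and 13.8 in WT, and 9 of 172 cells in 60TM and 13 of 109 in WT had none. Mfsd2a (ENSMUSG00000028655, chr4:122946850-122961188, minus strand) carries docosahexaenoic acid bound to lysophosphatidylcholine and keeps vesicle traffic low in brain endothelium. Its level was 383 CPM (347 to 421) in 60TM and 332 CPM (286 to 384) in WT, and its ratio of 1.15 (0.966 to 1.38) included 1.

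The efflux pump and the organic anion carriers were close between libraries. Abcb1a (ENSMUSG00000040584, chr5:8660077-8748575, plus strand) encodes P-glycoprotein, which returns many drugs to the blood. It stood at 1095 CPM (1034 to 1159) in 60TM and 1062 CPM (978 to 1151) in WT, a ratio of 1.03 (0.934 to 1.14). Slco1c1 (ENSMUSG00000030235, chr6:141524368-141570177, plus strand) encodes a thyroxine carrier. It stood at 1424 CPM (1355 to 1497) in 60TM and 1486 CPM (1387 to 1592) in WT, a ratio of 0.958 (0.880 to 1.04). Slco1a4 (ENSMUSG00000030237, chr6:141805440-141856199, minus strand) encodes a carrier of bile acids, steroid conjugates and drugs. It was lower in 60TM, at 2172 CPM (2085 to 2261) against 2516 CPM (2386 to 2652) in WT, a ratio of 0.863 (0.808 to 0.923). Within c28, c29, c30 and c35 the Slco1a4 ratio was 0.930, 0.936, 0.882 and 1.16. Its interval left out 1 in c30 alone (0.784 to 0.991). The median cell had 24.0 Slco1a4 UMIs per 10000 in 60TM and 24.5 in WT. The middle ranges of cells were 15.2 to 34.2 in 60TM and 14.7 to 47.7 in WT. Cluster c28 held 37 cells of 60TM and 10 of WT, and the part of the cluster mix in the pooled ratio was not tested. In the unnamed vascular cells Slco1a4 stood at 1574 CPM in 60TM and 1489 CPM in WT, with a ratio of 1.06 (0.987 to 1.13). The lower pooled level of Slco1a4 in 60TM was thus not seen in the unnamed vascular cells.

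Start regions were read for 8 of the 9 members, as RefSeq sequence of GRCm38.p6 from 250 bases before to 50 bases after the annotated start. The 3 shown are those of Cldn5, the lowest ratio of 60TM over WT among the members, of Slc2a1, the highest, and of Abcb1a, whose interval included 1. Capitals mark each match, on either strand, to the GC box GGGCGG, the TATA box TATAAA, the ETS-like word CNGGAAG or the TCF-like word CTTTGAA, and positions are of the first base of the match counted from the start. Cldn5 is chr16:18776597-18776896 and Slc2a1 is chr4:119108495-119108794, and Abcb1a is chr5:8566841-8567140, all on the plus strand.
Cldn5: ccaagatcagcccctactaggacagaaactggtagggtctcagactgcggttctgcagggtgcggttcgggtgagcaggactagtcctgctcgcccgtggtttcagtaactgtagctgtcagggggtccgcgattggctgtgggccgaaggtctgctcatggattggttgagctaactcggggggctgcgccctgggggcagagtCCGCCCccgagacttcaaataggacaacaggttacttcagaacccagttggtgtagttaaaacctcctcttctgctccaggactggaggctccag
Slc2a1: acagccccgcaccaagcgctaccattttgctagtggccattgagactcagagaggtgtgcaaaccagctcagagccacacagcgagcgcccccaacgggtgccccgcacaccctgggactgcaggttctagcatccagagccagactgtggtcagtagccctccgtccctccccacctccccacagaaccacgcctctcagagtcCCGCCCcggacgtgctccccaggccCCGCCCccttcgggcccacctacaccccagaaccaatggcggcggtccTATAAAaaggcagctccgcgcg
Abcb1a: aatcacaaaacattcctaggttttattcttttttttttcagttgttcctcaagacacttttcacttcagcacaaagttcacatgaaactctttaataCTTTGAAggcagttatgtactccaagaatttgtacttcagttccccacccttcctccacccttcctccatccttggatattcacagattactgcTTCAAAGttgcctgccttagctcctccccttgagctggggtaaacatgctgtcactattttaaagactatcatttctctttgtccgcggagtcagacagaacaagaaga

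Cldn5 holds 1 GC box at position -45, and Slc2a1 holds 2, at -45 and -20, with a TATA box after the start at position 29. Over the 8 members, GC boxes were found in 4, the junction genes Cldn5, Ocln and Tjp1 and the glucose transporter Slc2a1, and in none of Mfsd2a, Abcb1a, Slco1a4 and Slco1c1. Of 32851 start regions of the same length, 35.7% hold a GC box. Abcb1a holds the TCF-like word at -153 and -59, as 5.14% of start regions hold at least 1, and Slco1c1 holds the ETS-like word at -175, as 31.9% do. TATAAA was found in Slc2a1 and Slco1c1 and in 13.6% of all start regions. These matches are letters in a window and were not read as binding sites. The RefSeq start of Abcb1a lies well before the GENCODE start of the gene given above, so its window is that of the RefSeq start alone.

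Reads of the close relatives of these carriers could in principle be assigned to the wrong copy. Of the 31-base words in the last 500 bases of the annotated coding transcripts, 0% of Abcb1a's and 1.63% of Slco1a4's occur in another gene, for Slco1a4 mostly in Slco1a5. In the other direction, 26.5% of Abcb1b's words occur in Abcb1a or Abcb4 and 10.6% of Slco1a5's in its relatives, so low counts of these 2 genes are uncertain. Abcb1b, the second P-glycoprotein gene of the mouse, had 2 UMIs in 60TM and 1 in WT. Slco1a5 had 0 UMIs in 60TM and 1 in WT, and Slco1a6 had 0 in both. Genes that overlap a member and are listed in the matrix had at most 2 UMIs in endothelial cells, Gm12867 and Gm12868 opposite Slc2a1 and Gm29682 opposite Cdh5 among them.

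**Figure D1:**
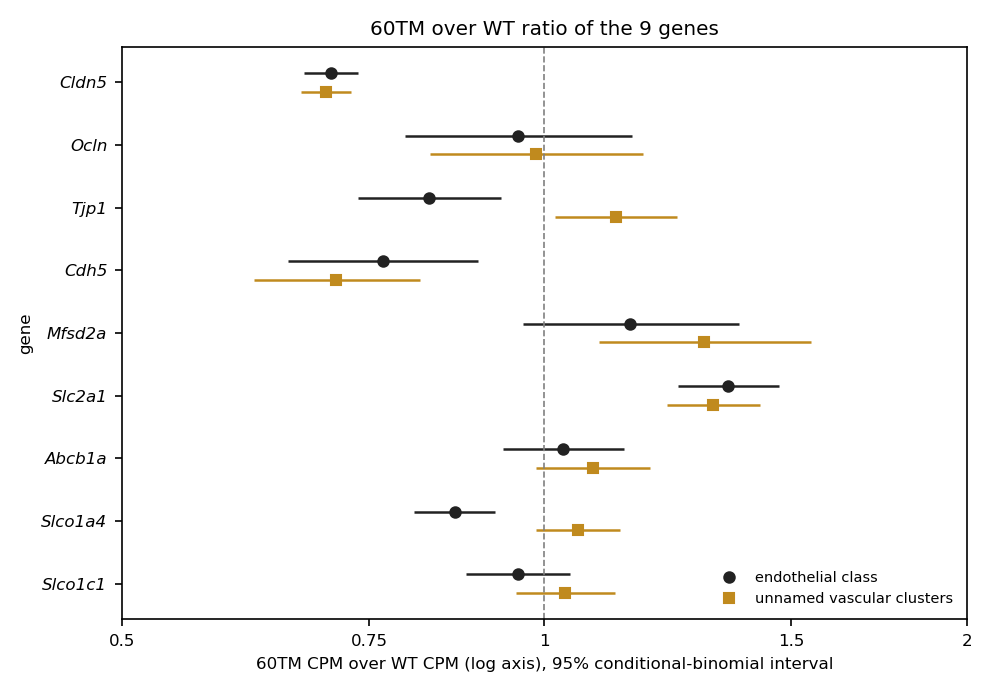
Ratio of 60TM CPM over WT CPM for each gene (log axis), with 95% conditional-binomial intervals, in the endothelial class (172 cells in 60TM and 109 in WT) and in the unnamed vascular clusters (129 cells in 60TM and 59 in WT). Cldn5 and Cdh5 lie below 1 and Slc2a1 above 1 in both sets of cells, while Tjp1, Slco1a4 and Slco1c1 lie on opposite sides of 1. The interval of Slco1c1 includes 1 in both sets, and that of Slco1a4 includes 1 in the unnamed clusters.

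No member differed by 1.5-fold or more, a size that 4.79% of the 3066 genes reached as higher in 60TM and 3.75% as lower. None differed by 2-fold, as 1.44% of genes did upwards and 0.62% downwards. The interval of the ratio lay above 1 for 1 member, Slc2a1, and below 1 for 4, Cldn5, Tjp1, Cdh5 and Slco1a4. Over all genes it lay above 1 for 10.7% and below 1 for 9.43%, so the members' 4 of 9 below 1 is a larger share than that of all genes, though intervals are narrower for genes with many UMIs, as the members have. The median log2 ratio of the 9 genes was -0.06 and that of all 3066 genes -0.01.

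The unnamed vascular cells are other barcodes of the same libraries. They hold endothelial and pericyte RNA in 1 barcode and are deep, and whether they are joined cells or doublets was not tested, so their levels are those of a mixture. There Cldn5 stood at 3252 CPM in 60TM and 4654 CPM in WT, with a ratio of 0.699 (0.671 to 0.728). Cdh5 stood at 308 CPM in 60TM and 434 CPM in WT, with a ratio of 0.711 (0.621 to 0.815). Slc2a1 stood at 1501 CPM in 60TM and 1138 CPM in WT, with a ratio of 1.32 (1.22 to 1.42). In both sets of cells these 3 genes lay on the same side of 1. The mix of clusters differed between libraries, with 57, 45, 17 and 10 cells of 60TM and 27, 5, 19 and 8 of WT in c26, c27, c32 and c33. Within these clusters the ratio was 0.688, 0.739, 0.894 and 0.826 for Cldn5, each with an interval below 1. It was 1.40, 2.55, 1.33 and 1.43 for Slc2a1, each with an interval above 1. For Cdh5 it was 0.764, 0.739, 0.806 and 0.804, nearer to 1 than the pooled value each time, and the interval lay below 1 in c26 alone. Over the pooled clusters, Mfsd2a reached 294 CPM in 60TM and 227 CPM in WT there, with a ratio of 1.30 (1.09 to 1.55) whose interval lay above 1, unlike in the endothelial class.

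RNA of other cells also differed between the endothelial cells of the libraries. Ttr of the choroid plexus was at 454 CPM in 60TM endothelial cells and 39.7 CPM in WT ones, and in microglia, which do not make it, at 347 CPM in 60TM and 33.6 CPM in WT. The 10 choroid plexus markers summed to 466 CPM in 60TM and 41.5 CPM in WT, with Otx2, Slc4a5 and Aqp1 at 0 in both. The 8 astrocyte markers, all detected in both, summed to 2221 CPM in 60TM and 1647 CPM in WT. Most of this was Slc1a2, at 1208 CPM in 60TM and 833 CPM in WT. S1pr1 alone among them was lower in 60TM, at 472 CPM against 545 CPM in WT. Gfap was at 211 CPM in 60TM and 16.3 CPM in WT. The 8 microglia markers, all detected in both, summed to 294 CPM in 60TM and 1049 CPM in WT, with single cells up to 4269 CPM in 60TM and 34692 CPM in WT. Cldn5 itself was at 0.830 CPM in choroid plexus cells and 2.48 CPM in microglia of the 60TM library. Some other members were not low there, such as Slco1c1 at 280 CPM in 60TM choroid plexus cells and Tjp1 at 166 CPM in 60TM microglia. In astrocytes Slco1c1 stood at 290 CPM in 60TM and 426 CPM in WT and Tjp1 at 138 CPM in both, and Mfsd2a and Slc2a1 are also expressed there. Without the cells in which pericyte, choroid plexus and astrocyte markers took over 0.2% of UMIs, 50 cells in 60TM and 52 in WT remained. In these the ratio was 0.709 (0.662 to 0.760) for Cldn5, 0.683 (0.534 to 0.873) for Cdh5 and 1.28 (1.13 to 1.46) for Slc2a1, on the same side of 1 as in all endothelial cells. Slco1a4 was lower still, at 0.775 (0.697 to 0.862), and Abcb1a, whose interval included 1 in all endothelial cells, was below 1 at 0.833 (0.710 to 0.979). With the library's mean profile subtracted at 5% of each class's UMIs, as a stand-in for free RNA, the ratio was 0.705 (0.675 to 0.737) for Cldn5 and 1.35 (1.25 to 1.47) for Slc2a1. Microglia markers were not part of the cell filter, and their part in the ratios was not tested. The filter did count S1pr1 and the pericyte marker Rgs5, which was at 1018 CPM in 60TM and 1167 CPM in WT endothelial cells. How much of such RNA endothelial cells make themselves was not tested.

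The endothelial class was made of 4 sub-clusters, called c28, c29, c30 and c35 here. In c28, c29 and c30, which hold 165 of the 172 cells of 60TM and 104 of the 109 of WT, Cldn5 was lower and Slc2a1 higher in 60TM each time. Cldn5 stood at 4035, 4625 and 4517 CPM in 60TM and at 6025, 6297 and 6471 CPM in WT. Slc2a1 stood at 1830, 1948 and 2348 CPM in 60TM and at 1318, 1375 and 1574 CPM in WT. The small cluster c35, led by Vwf, the clotting factor gene of larger vessels, had 7 cells in 60TM and 5 in WT. It showed neither difference, with Cldn5 at 3505 CPM in 60TM and 3295 CPM in WT and Slc2a1 at 1327 CPM in 60TM and 1312 CPM in WT. Among these and the unnamed vascular clusters, Mfsd2a was lowest in c35 in 60TM, at 67.8 CPM (27.3 to 140). In WT it was lowest in the unnamed cluster c33, which also has Vwf among its leading genes, at 104 CPM (56.6 to 174). In c30, led by Slco1a4 and Ly6c1, Mfsd2a stood at 462 CPM in 60TM and 430 CPM in WT.

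**Figure D2:**
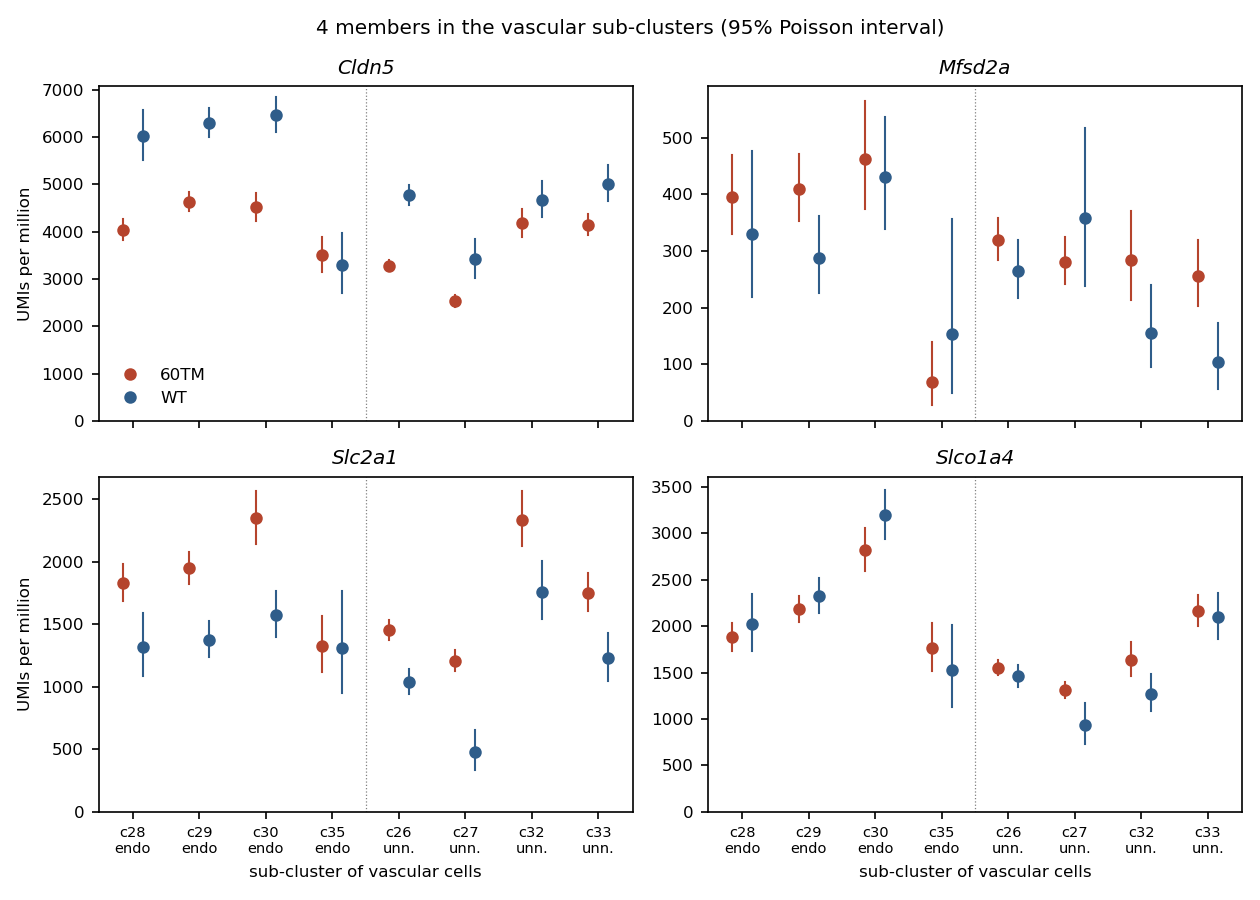
CPM (linear axis from 0) of Cldn5, Mfsd2a, Slc2a1 and Slco1a4 in the sub-clusters of the endothelial class (endo, left of the dotted line) and in the unnamed vascular clusters (unn.), with 95% Poisson intervals. Cldn5 lies lower in 60TM in all but c35, and Slc2a1 lies higher in 60TM in all but c35, where the 2 libraries differ by less than the intervals.

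The comparison with mural cells asks how far the 9 genes set endothelial cells apart from the cells that wrap them. Except for Tjp1, the members were at least 2-fold higher in endothelial than in mural cells in both libraries (8 of 9), as were 14.5% of the 5760 genes with at least 20 UMIs over both classes in each library. None of the members was 2-fold lower, as 8.8% of these genes were. Cldn5 had 11 UMIs in 60TM mural cells and 7 in WT ones, or 76.3 CPM (38.1 to 136) in 60TM and 40.4 CPM (16.3 to 83.3) in WT, and endothelial cells were 56.7-fold (31.6 to 114) higher in 60TM and 152-fold (73.6 to 378) higher in WT. Single mural cells held much of this: without the cell richest in Cldn5, the ratio was 118 (50.7 to 364) in 60TM and 346 (118 to 1681) in WT. Slc2a1 was 21.4-fold (12.5 to 40.3) higher in endothelial cells in 60TM and 27.5-fold (14.4 to 60.3) in WT. Abcb1a had 6 UMIs in 60TM mural cells, a ratio of 26.3 (12.1 to 71.9), or 76.2 (21.0 to 630) without the 1 cell that held 4 of them, and 0 in WT mural cells, where endothelial cells were at least 61.3-fold higher, taking 3 UMIs per library and class as the floor. Ocln, Cdh5 and Mfsd2a had 2 to 4 UMIs in mural cells of each library, so their ratios of 21.3 to 28.8 are loosely known. Tjp1 was near level, at 1.29-fold (1.02 to 1.66) higher in endothelial cells in 60TM and 1.79-fold (1.41 to 2.29) in WT.

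**Figure D3:**
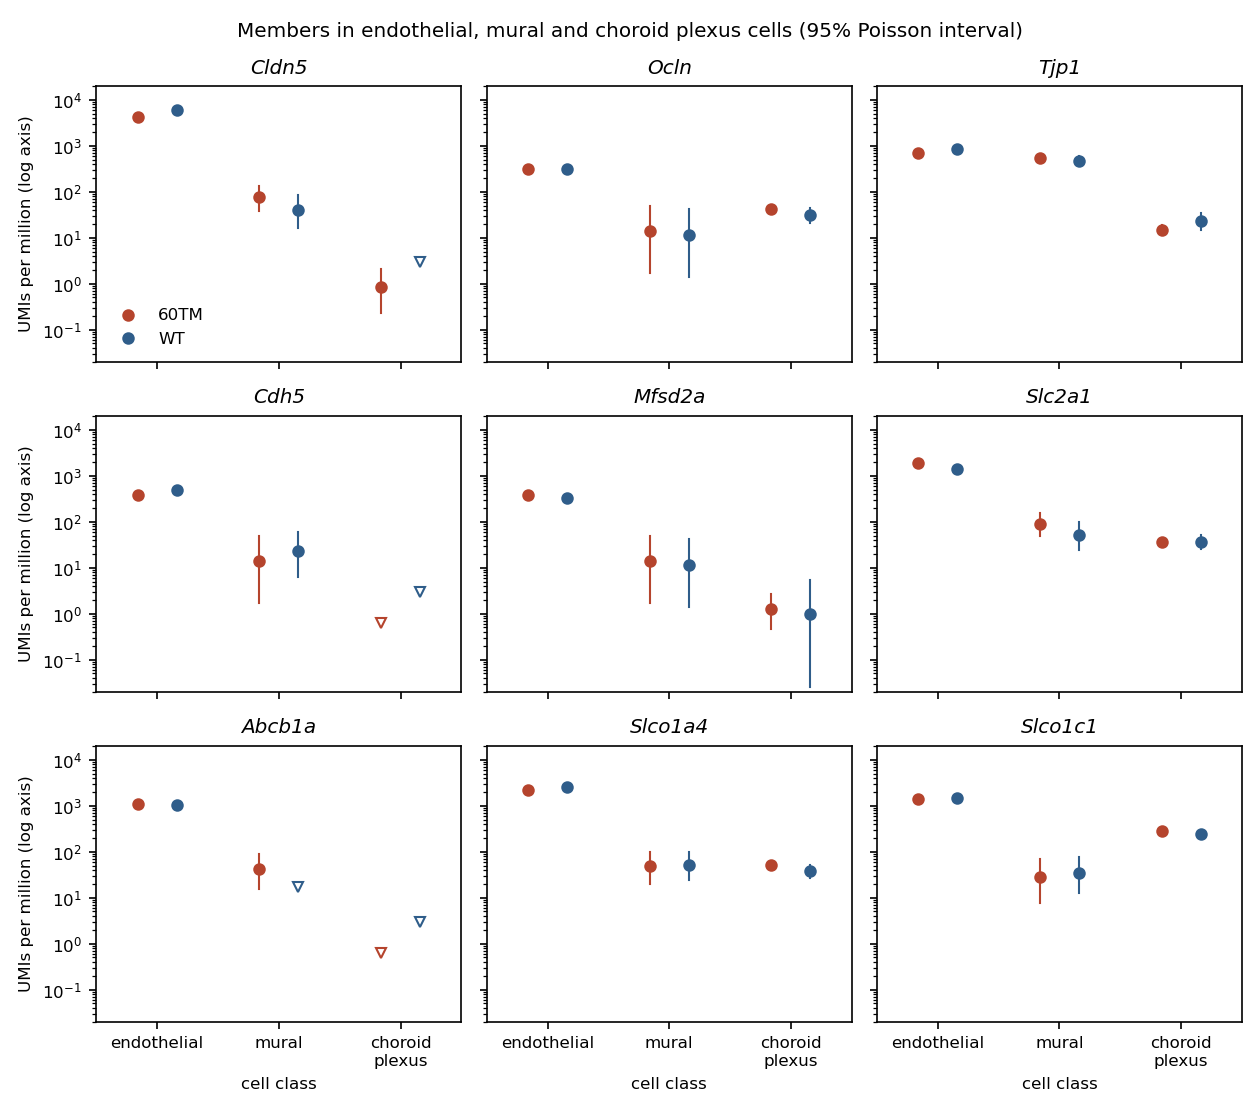
CPM (log axis) of each gene in endothelial, mural and choroid plexus cells of the 60TM and WT libraries, with 95% Poisson intervals. Open triangles mark 0 UMIs and stand at the level that 3 UMIs would give. Tjp1 is the gene for which mural cells come close to endothelial cells, and Slco1c1 the one that choroid plexus cells share most.

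Choroid plexus cells, the other barrier of the brain, had lower levels of all 9 genes than endothelial cells, but several were read in many cells. As deposited, Slco1c1 was read in 193 of 243 cells in 60TM, Slco1a4 in 120, Ocln in 119, Slc2a1 in 104 and Tjp1 in 56. A median of 3 members was read per choroid plexus cell in 60TM and 2 in WT. All 9 were at least 2-fold higher in endothelial cells in both libraries, against 36.5% of the 7296 genes with that minimum, and none was 2-fold lower, against 13.3%. The median log2 ratio of all these genes was itself above 0, at 0.59 in 60TM and 0.64 in WT, and that of the members was 5.56 and 5.82. Over mural cells the median of all genes was 0.07 in 60TM and 0.05 in WT. Ttr makes up 266175 CPM of 60TM choroid plexus cells, and its part in these ratios was not tested. Cdh5 and Abcb1a had 0 UMIs in choroid plexus cells of both libraries. Against the floor, endothelial cells were at least 608-fold higher for Cdh5 in 60TM and at least 166-fold in WT, and at least 1761-fold higher for Abcb1a in 60TM and at least 359-fold in WT. Cldn5 had 4 UMIs in the 60TM cells and 0 in the WT ones. Slco1c1 was the member that choroid plexus cells shared most, at 280 CPM (265 to 296) in 60TM and 242 CPM (213 to 274) in WT, so that endothelial cells were 5.08-fold (4.72 to 5.47) higher in 60TM and 6.15-fold (5.32 to 7.12) in WT. Ocln stood at 41.7 CPM in 60TM choroid plexus cells and 30.6 CPM in WT ones, with ratios of 7.35 (6.15 to 8.79) in 60TM and 10.4 (7.10 to 15.8) in WT. The claudins differed in kind. Cldn1, Cldn2 and Cldn3 had 0 UMIs in endothelial cells of both libraries, while in choroid plexus cells Cldn2, which forms a pore for cations and water, stood at 74.9 CPM in 60TM and 73.1 CPM in WT. Plvap, the diaphragm protein of leaky capillaries, had 1 UMI in 60TM endothelial cells and 0 in WT ones, which allows up to 3 UMIs in WT.

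Outside the vessels, the 9 genes fell into those that stayed near endothelial cells and those that other classes shared. Endothelial and unnamed vascular cells together held 98.4% of all Cldn5 UMIs in 60TM and 98.0% in WT. For Abcb1a this was 97.4% in 60TM and 94.8% in WT, and for Cdh5 94.3% in 60TM and 90.9% in WT. For Tjp1 it was 20.3% in 60TM and 10.9% in WT, and for Mfsd2a 23.0% in 60TM and 16.9% in WT. Tjp1 was read in every large class, for example at 166 CPM in 60TM microglia and 164 CPM in WT ones. These shares also move with how many vascular cells each library held.

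Mfsd2a was shared with the oligodendrocyte lineage before myelin. In committed oligodendrocyte precursors it stood at 275 CPM in 60TM and 316 CPM in WT, and in oligodendrocyte precursors at 270 CPM in 60TM and 298 CPM in WT. In WT the interval of the committed precursors overlapped that of endothelial cells. In astrocytes Mfsd2a stood at 148 CPM (142 to 154) in 60TM and 121 CPM (113 to 131) in WT, a ratio of 1.22 (1.12 to 1.33).

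Slc2a1 and Ocln were next highest in ependymal cells, the ciliated lining of the ventricles. Slc2a1 stood there at 636 CPM (575 to 701) in 60TM and 593 CPM (561 to 625) in WT. Ocln stood at 150 CPM (121 to 183) in 60TM and 134 CPM (119 to 150) in WT. For both genes the 2 libraries' intervals overlapped in these cells. In astrocytes Slc2a1 was at 141 CPM in 60TM and 135 CPM in WT, and these intervals overlapped as well. Cldn5 was at 30.3 CPM in 60TM ependymal cells and 1.33 CPM in WT ones, but its 19 UMIs in 60TM came from 3 cells, and the pericyte gene Vtn was also present in 3 cells there.

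Slco1c1 was shared with astrocytes, and there the libraries differed. It stood at 290 CPM (282 to 299) in 60TM astrocytes and 426 CPM (409 to 443) in WT ones, a ratio of 0.682 (0.649 to 0.717). In choroid plexus cells the ratio was 1.16 (1.01 to 1.33), and in endothelial cells its interval included 1. Whether the ratio differs between classes was not tested. Slco1a4 was next highest in neurons, at 97.7 CPM in 60TM and 93.5 CPM in WT, far under its endothelial level.

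**Figure D4:**
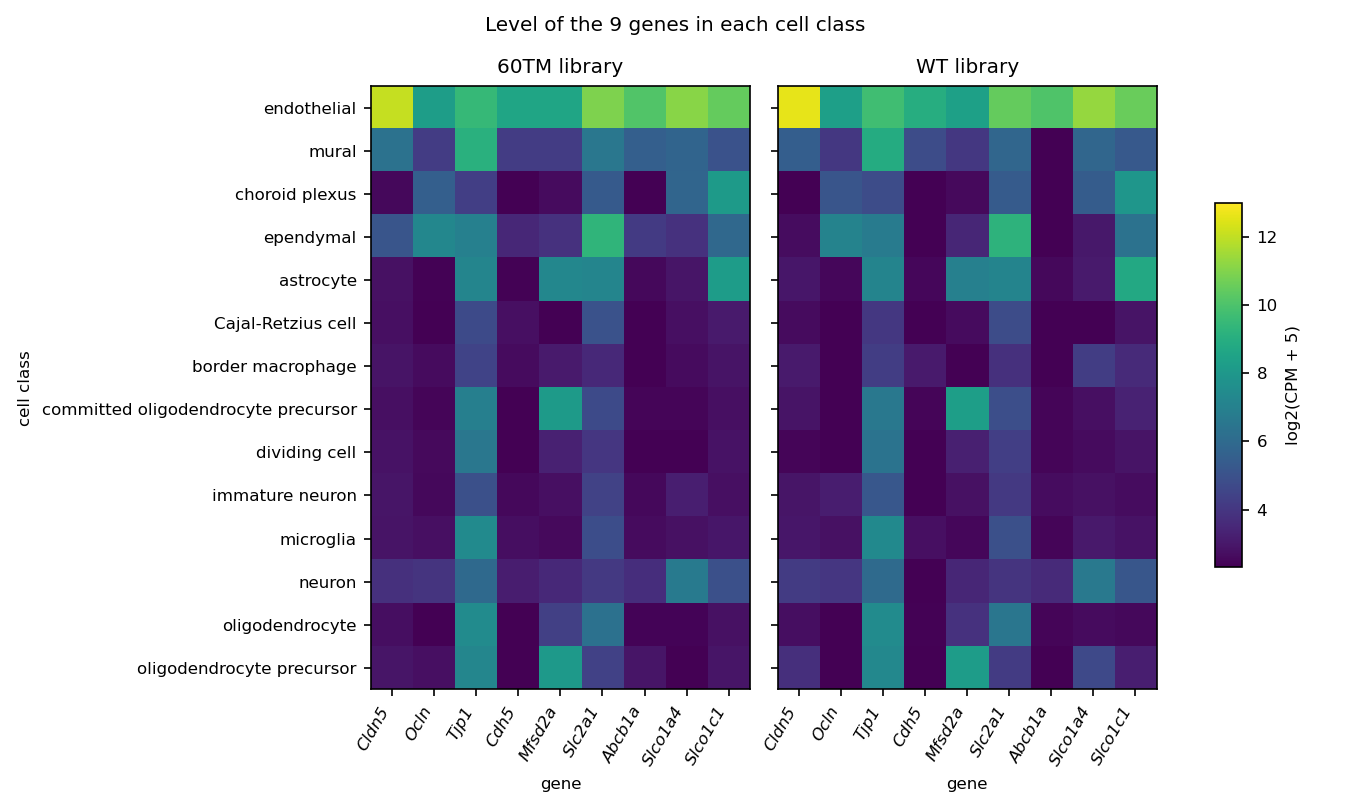
Level of each gene, as log2(CPM + 5), in each cell class with at least 40 cells in both libraries, for 60TM and WT. Each column is to be read downwards, since levels of different genes are not comparable. The endothelial row is the highest in all 9 columns, and Tjp1 is present in most rows. Ocln, Mfsd2a, Slc2a1 and Slco1c1 are each also present in other classes.

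Within single endothelial cells the members were read together. A median of 8 of the 9 genes had a UMI in 60TM cells and 8 in WT cells, and all 9 were read in 66 of 172 cells in 60TM and 40 of 109 in WT. The number followed depth: cells under 2000 UMIs had a median of 5 members in 60TM and 6 in WT, and cells with 10000 or more had 9 in both. Thinned to 2000 UMIs, 121 cells in 60TM and 80 in WT had a median of 7 members each, while 51 cells in 60TM and 29 in WT were too shallow. At the same depth a median of 1 member was read in mural cells of both libraries, and 1 in 60TM and 0 in WT choroid plexus cells. Microglia had a median of 0 and astrocytes a median of 1 in both libraries at this depth, and both classes also express Tjp1.

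**Figure D5:**
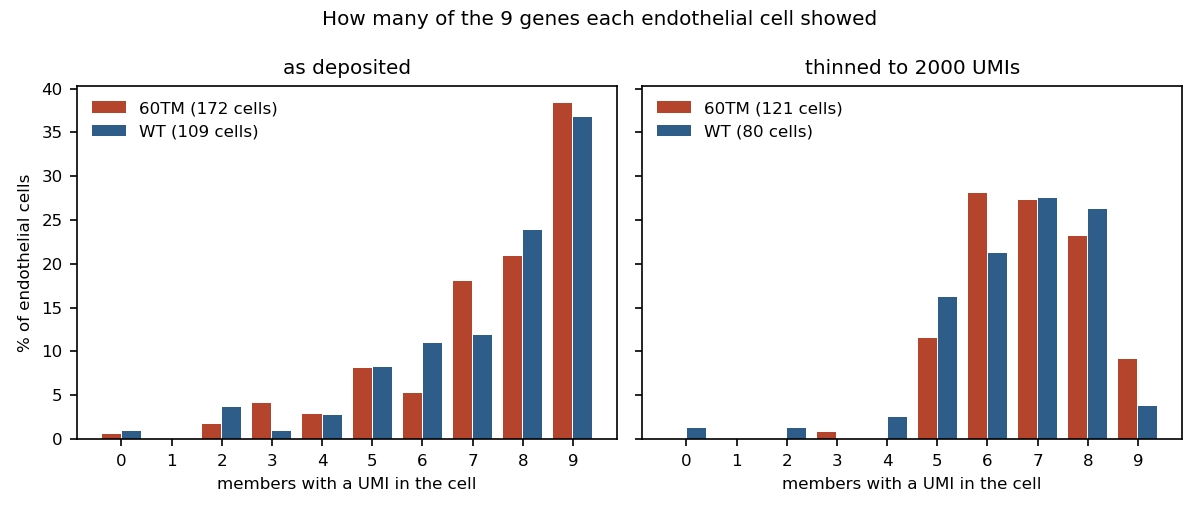
Percent of endothelial cells (bars) by the number of the 9 genes with a UMI in the cell, for 60TM and WT, as deposited on the left and with each cell thinned to 2000 UMIs on the right. Most cells show 5 or more members, and the peak moves to 6, 7 and 8 members once depth is equal.

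Read gene by gene at 2000 UMIs, Cldn5 had a UMI in 99.2% of 60TM cells and 96.2% of WT cells, Slco1a4 in 98.3% of 60TM and 97.5% of WT cells, and Slc2a1 in 98.3% of 60TM and 87.5% of WT cells. As deposited, the share for Slc2a1 was 94.8% in 60TM and 88.1% in WT. Cdh5 was read in 49.6% of 60TM and 57.5% of WT cells, Mfsd2a in 50.4% of 60TM and 43.8% of WT cells, and Ocln in 41.3% of 60TM and 36.2% of WT cells. In microglia, with medians far above 2000 UMIs before thinning, the shares of Cldn5, Cdh5, Mfsd2a and Ocln were at most 0.53% in either library. Slc2a1 was read in 5.25% of 60TM microglia and 5.49% of WT ones, so its endothelial shares lie well above those of microglia. Among thinned 60TM cells, Ocln was read in 41.0% of those with Mfsd2a and 41.7% of those without it, while as deposited these shares were 74.5% and 45.2%. Not every pair came level in this way: Tjp1 was read in 60.0% of thinned 60TM cells with Ocln and 77.5% of those without it. That is a single pair in the 60TM library, and whether its difference exceeds counting error was not tested.

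Other genes of the barrier were taken from lists, and a gene counts as higher or lower in 60TM here when its ratio reached 1.5-fold with an interval that left out 1, as 3.59% of the 7992 genes with at least 20 UMIs in the class did upwards and 4.89% downwards. Of 17 other barrier carriers, 14 had that minimum, and of these 5 were lower and 0 higher, with a median log2 ratio of -0.35. The taurine carrier Slc6a6 stood at 899 CPM in 60TM and 1738 CPM in WT, a ratio of 0.518 (0.473 to 0.566). The iron exporter Slc40a1 had a ratio of 0.571 (0.480 to 0.679), the glutamine carriers Slc38a5 and Slc38a3 ratios of 0.597 (0.492 to 0.726) and 0.630 (0.503 to 0.789), and the lactate carrier Slc16a1 one of 0.666 (0.575 to 0.772). Amino acid carrier genes were not uniform: Slc3a2, the shared heavy chain of the large neutral amino acid carrier, had a ratio of 1.47 (1.32 to 1.65) and its partner Slc7a5 one of 1.36 (1.13 to 1.65), both under 1.5-fold.

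No junction, efflux or vesicle gene met that rule. Of 11 other junction genes measured, 0 were higher or lower by it, with a median log2 ratio of 0.04. Marveld2, with 15 UMIs in 60TM and 5 in WT, had a ratio of 1.51 whose interval (0.523 to 5.32) included 1. The adhesion gene Jam2 had a ratio of 1.25 (1.05 to 1.49) and Ctnnb1, the beta-catenin that links cadherins to actin and also relays Wnt signals, one of 0.782 (0.700 to 0.874). Of 4 efflux pumps measured, 0 met it. Abcc4, an exporter of organic anions, stood at 156 CPM in 60TM and 105 CPM in WT, a ratio of 1.49 (1.10 to 2.04) that was just under 1.5-fold. Abcg2, the breast cancer resistance pump, stood at 1056 CPM in 60TM and 950 CPM in WT, a ratio of 1.11 (1.002 to 1.23). Of 8 vesicle genes measured, 0 met it, and the transferrin receptor Tfrc, which brings iron into the brain, had a ratio of 0.757 (0.661 to 0.868).

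Among genes of Wnt signalling and barrier induction, Reck was higher and Sox18 lower by that rule. Reck, a subunit of the receptor for Wnt7, had a ratio of 1.65 (1.08 to 2.60). Sox18, a transcription factor of the endothelium, had a ratio of 0.638 (0.551 to 0.738). The Wnt target Lef1 stood at 0.912 (0.784 to 1.06), with an interval that included 1.

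Of 5 adhesion and activation genes measured, 2 were higher and 1 lower. The iron-binding protein gene Lcn2 had 93 UMIs in 27 cells of 60TM and 12 UMIs in 2 cells of WT, a ratio of 3.91 (2.14 to 7.84), or 23.4 (6.29 to 196) without the 1 WT cell that held 10 of the 12. In 60TM astrocytes Lcn2 stood at 1166 CPM, against 0 UMIs in WT astrocytes, and the part of astrocyte RNA in the endothelial value was not tested. Vcam1, which binds leukocytes, had 67 UMIs in 12 cells of 60TM and 14 UMIs in 8 cells of WT, a ratio of 2.41 (1.34 to 4.65). It was 1.54 (0.824 to 3.05), with an interval that included 1, without the 1 cell of 60TM that held 25 of the 67, and 4.20 (2.01 to 10.1) without the richest WT cell. Astrocytes expressed Vcam1 at 291 CPM in 60TM and 303 CPM in WT, and the part of their RNA here was not tested either. Lrg1 had 3 UMIs in 2 cells of 60TM and 19 UMIs in 3 cells of WT, a ratio of 0.0797 (0.0151 to 0.271). It was 0.167 (0.0291 to 0.670) without the richest WT cell and 0.0269 (0.000647 to 0.169) without the richest 60TM cell. The immediate early gene Ier3 was higher, with a ratio of 1.53 (1.27 to 1.86), and it was the 1 of 11 measured genes of its list that passed.

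The genes whose level followed each member most closely over 24 class sums (12 classes with at least 50 cells in both libraries) were found by Pearson's r of log2(CPM + 5), as a description. The class sums share library and depth. Mural cells (49 in 60TM) and ependymal cells (42 in 60TM) were among the classes under that minimum, so their levels do not enter r. Notch3, named below for Slc2a1, stood at 673 CPM in 60TM mural cells and 797 CPM in WT ones. In endothelial cells Notch3 was at 10.0 CPM in 60TM and 14.4 CPM in WT. Cldn5 was closest to Emcn (0.997), Foxq1 (0.995) and Car5a (0.995), and Abcb1a to Gata2 (0.997), Slc38a5 (0.996) and Slc35f2 (0.996). Cdh5 was closest to Tmem252 (0.993), Depp1 (0.992) and Erg (0.992), Ocln to Rassf9 (0.989), Slc22a8 (0.986) and Paqr5 (0.984), and Slco1a4 to Mecom (0.970), Rflnb (0.957) and Rph3al (0.952). Slco1c1 was closest to Ccdc141 (0.975), Pdgfd (0.944) and Gsta4 (0.936). Mfsd2a was closest to Rgcc (0.925), Tspan12 (0.921) and Cav1 (0.910), Slc2a1 to Sox7 (0.922), Cox4i2 (0.904) and Notch3 (0.901), and Tjp1 to Tmc7 (0.864), Slc50a1 (0.843) and Slc16a1 (0.823). Among the members themselves Cldn5 and Abcb1a were the closest pair (0.992), and Ocln and Mfsd2a the most distant (0.272).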

How the data were processed

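Single-cell RNA was measured in 1 library of 60TM and 1 of WT hippocampus, each pooled from 3 mice. The deposited matrices hold raw UMI counts per gene and barcode, made with Cell Ranger 5.0.0 on GRCm38 per the submitters' processing notes. Gene and barcode tables, as deposited, give names (unit: other). The annotation release and whether intronic reads were counted are not given in the sources used here. The lowest barcode total was 502 UMIs in 60TM and 500 in WT.

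Of 8733 barcodes in 60TM and 6861 in WT, those with fewer than 500 genes or over 15% mitochondrial UMIs were removed, then those with the highest Scrublet scores, a share that grew with the number of barcodes (610 in 60TM and 377 in WT). Scrublet's own threshold would have taken 297 in 60TM and 229 in WT. Counts were scaled to 10000 per cell and logged, and 2000 variable genes (the members and the lists left out), 30 components, 15 neighbours and Leiden clustering at resolution 1 were used (scanpy 1.11.5). The vascular clusters were clustered again on their own variable genes, a step added after the first clusters had been seen, which gave 36 clusters in all. Clusters were named from markers of 20 classes (at least 3 markers, log2 ratio of at least 1, a UMI in at least 20% of cells), and pericytes and smooth muscle cells were joined as mural. Unnamed clusters held 15.7% of cells in 60TM and 8.30% in WT.

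UMIs were summed per class and library. CPM have exact Poisson intervals, ratios exact conditional-binomial ones and shares Clopper-Pearson ones. Sums of 0 were set against a floor of 3 UMIs. The ratio and interval code was tested on simulated data. Named are all 9 members, up to 4 genes per list ranked by the interval bound nearest to 1, the relatives of the members, the claudins and Plvap, and the 3 genes closest to each member in pattern. Slc38a3, Slc3a2, Slc7a5, Jam2, Marveld2, Abcc4, Ctnnb1, Abcg2, Tfrc, Lef1, Ttr, Gfap and Vtn were named after their values were seen. The members and lists were chosen with earlier results of these data known. TMM factors for 1 alternative came from edgeR, whose count tests were not used, since no replicates exist. Of 32285 gene identifiers, 32158 matched GENCODE M21 on the same build. A few results on genes of the Wnt and venous lists are not reported here.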

Additional observations from a re-analysis of the deposited data

How the results depend on the processing

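Over 16 alternatives the ratio of Cldn5 stayed between 0.686 and 0.758 and that of Cdh5 between 0.607 and 0.809, below 1 each time, and that of Slc2a1 between 1.27 and 1.43, above 1 each time. In the unnamed vascular clusters alone, an alternative chosen after seeing the data, Tjp1 turned to 1.12 and Slco1a4 to 1.06, and the cause was not tested. The median log2 ratio of the 9 genes, -0.06, became 0.0742 with thinned cells and 0.0799 in the unnamed vascular clusters alone. Counts of genes at least 2-fold lower (19) became 42 with the mean over cells, 2 with thinned cells, 8 with cells of 200 genes or more and 5% or less mitochondrial UMIs, 8 with a higher minimum of genes per cell, 33 with the unnamed clusters added, 5 without cells carrying other markers, 226 at 20 UMIs and 688 with no minimum. Counts at least 2-fold higher (44) became 9 with thinned cells, 10 without cells carrying other markers, 286 at 20 UMIs and 821 with no minimum. The median number of members per cell became 7 in 60TM and 7 in WT with thinned cells. It became 9 in 60TM with a higher minimum of genes per cell, with the unnamed clusters added and without cells under 2000 UMIs (the last chosen after seeing the data), and 9 in 60TM and 9 in WT in the unnamed clusters alone. The count over choroid plexus cells (9) was the same in every alternative run, and that over mural cells (8) in all but cells assigned by marker score, where it was 6. Values by single cluster and without 1 cell were added after seeing the data.

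No paired analysis was possible because each genotype has 1 library, and for the same reason leaving out a library leaves no comparison. The members cannot show how mice differ, and a genotype difference cannot be told apart from a difference in dissection, capture or depth. Pooled cells of 3 mice give intervals that are too narrow for a comparison of mice.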
